A study of Mus musculus with 12 samples.

Results

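The mitochondrially encoded RNAs of mouse thymus were taken as all genes whose symbol starts with mt- in the deposited transcript tables. The rule found 37 of 51826 genes, namely 2 ribosomal RNAs (rRNAs), 13 messenger RNAs (mRNAs) and 22 transfer RNAs (tRNAs). They were measured in 12 libraries of polyadenylated RNA from whole thymus, all of the strain that the labels call F5. Controls 1 to 3 were thymus of healthy mice with the genotype label control. Tumors 1 to 9 were T cell acute lymphoblastic leukemias (T-ALL) from the thymus of mice with tetracycline-inducible IL-7Rα, a receptor chain for the cytokine interleukin-7, and their titles call the chain Dox induced. The promoter that drives the induction, its duration, the age of the mice and whether each library came from its own animal were not stated in the sources used here. A p-value below thus reflects the spread over these libraries, which may be technical.

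A mammalian mitochondrion reads its small circular genome from both strands into long precursor RNAs. Transfer RNAs lie between most of the other genes, and cutting them out releases the rRNAs and mRNAs, most of which then receive short A tails. The rRNAs build the mitochondrial ribosome, and the mRNAs encode core subunits of complexes I, III, IV and V of oxidative phosphorylation, whose other subunits are encoded in the nucleus. Complex II has nuclear-encoded subunits only.

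On mm10 (GRCm38) chromosome M, 28 of the genes lie on the plus strand and 9 on the minus strand, which are mt-Nd6 and 8 tRNAs. The first 5 genes follow each other closely: mt-Tf (1 to 68), mt-Rnr1 (70 to 1024), mt-Tv (1025 to 1093), mt-Rnr2 (1094 to 2675) and mt-Tl1 (2676 to 2750). mt-Tv, the valine tRNA, therefore touches both rRNAs, and its sequence is shown between the ends of its neighbours because these adjoining genes differed widely in level. All sequences are 5′ to 3′, from the GENCODE M21 transcripts of GRCm38.
mt-Rnr1, last 30 bases, chrM:995-1024, plus strand: aagcatactggaaagtgtgcttggaataat
mt-Tv, chrM:1025-1093, plus strand: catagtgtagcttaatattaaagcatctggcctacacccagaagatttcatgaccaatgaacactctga
mt-Rnr2, last 30 bases, chrM:2646-2675, plus strand: atacgtacaccctctaacctagagaaggtt

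A pair of minus-strand tRNAs, those for serine (mt-Ts1) and glutamate (mt-Te), is shown because it held most of the tRNA counts in several tumors. mt-Ts1 lies tail to tail with mt-Co1 and shares 3 bases with the end of that gene, which are in capitals. mt-Te lies directly ahead of mt-Nd6, which is read from the same strand.
mt-Ts1, chrM:6870-6938, minus strand: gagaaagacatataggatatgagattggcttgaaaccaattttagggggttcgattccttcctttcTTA
mt-Te, chrM:14071-14139, minus strand: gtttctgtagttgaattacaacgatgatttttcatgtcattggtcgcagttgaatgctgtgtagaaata

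Among the mRNAs, 3 have an annotated length that is 1 base above a multiple of 3 and end in a single T of an incomplete stop codon, in capitals here. In the cell the A tail completes such a stop codon. They are shown because polyadenylated RNA was what these libraries selected.
mt-Co3, last 30 bases, chrM:9361-9390, plus strand: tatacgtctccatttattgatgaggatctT
mt-Nd4, last 30 bases, chrM:11515-11544, plus strand: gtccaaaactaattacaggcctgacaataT
mt-Cytb, last 30 bases, chrM:15259-15288, plus strand: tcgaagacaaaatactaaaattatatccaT
The longest internal run of A was 5 bases in mt-Rnr1 and 7 in mt-Rnr2, within the 3 to 8 bases seen over the mRNAs.

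The libraries held 8133152 to 12019924 estimated counts in the controls and 11617724 to 34769946 in the tumors. By what else they contained they did not split by group. Satellite-like gene models, made largely of repeats, took 29.9% to 37.1% of the counts in the controls and 39.0% to 59.5% in tumors 7–9, against 0.115% to 2.44% in tumors 1–6. Of 1432 odorant and pheromone receptor genes of the olfactory and vomeronasal families, 98.9% to 99.2% had a count in the controls and 98.3% to 99.0% in tumors 7–9, against 44.8% to 92.6% in tumors 1–6. All 18 T cell markers checked had counts in every library, with summed levels of 119 to 204 TPM (a level scaled by gene length and library depth) in the controls, 267 to 820 in tumors 1–6 and 52.4 to 133 in tumors 7–9. Muscle and fat cells are rich in mitochondria. Their markers summed to 44.5 to 55.4 TPM (10 muscle genes) and 24.5 to 31.5 TPM (8 adipocyte genes) in the controls, and to 0.796 to 3.01 and 0.449 to 2.41 TPM in tumors 1–6. Tumors 7–9 lay between, at 9.37 to 37.1 and 7.52 to 22.4 TPM. This order was not particular to muscle and fat. B cell markers summed to 35.9 to 46.2 TPM in the controls and 0.856 to 3.38 in tumors 1–6. Erythroid markers summed to 21.9 to 52.9 and 0.693 to 3.75 TPM, and thymic epithelium markers to 32.2 to 36.0 and 3.54 to 8.51 TPM. Fibroblast and endothelium markers overlapped, at 93.6 to 115 and 32.6 to 196 TPM. The muscle genes Mb, Tnni3, Myh6, Nppa, Myh4 and Actc1 and the adipocyte genes Adipoq, Cidea, Ucp1, Lep and Cfd were at 0 in at least 1 library. Il7r itself was at 2.51 to 3.20 CPM (counts scaled by depth and by between-library TMM factors) in the controls. It was at 33.2 to 512 in tumors 1–6 and 5.02 to 5.62 in tumors 7–9. Per library count, however, only tumor 9 among tumors 7–9 was above all controls, with 168 Il7r counts among 11617724. Tumor 7 had 87 among 17158731 and tumor 8 had 130 among 13606573, where control 2 had 88 among 8726703. The main results below are therefore also given for tumors 7–9, which were like the controls in satellite-like and receptor counts. The part of these differences in the results was not tested.

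The first comparison asked how much of each library was mitochondrial. Members took 6.73%, 0.181% and 0.0948% of the counts in controls 1 to 3. In the tumors the share ran from 2.54% (tumor 9) over a median of 41.3% to 69.3% (tumor 1). Tumors 1–6 lay at 31.6% to 69.3% and tumors 7–9 at 11.1%, 9.02% and 2.54%, so that 8 of 9 tumors were above all controls and tumor 9 was below control 1. The mean was 2.34% ± 3.81 (SD, n = 3) in the controls and 38.5% ± 26.4 (SD, n = 9) in the tumors. This difference of 36.2 percentage points had a p of 0.0409 in a two-sided exact permutation test and missed the threshold of 0.05 after Benjamini-Hochberg adjustment over 10 such measures (adjusted p = 0.0511, exact permutation test). It passed when the satellite-like models were left out of the library totals (adjusted p = 0.0390), without tumors 7–9 (0.0170), without tumor 7 (0.0455) and without tumor 9 (0.0303), while with TPM sums in place of counts the difference was 15.9 points (adjusted p = 0.0960). For tumors 7–9 alone it was 5.21 points (adjusted p = 0.286, exact permutation test). In whole tissue, fewer cells of a type and less RNA per cell cannot be told apart. Relative to the counts of nuclear protein-coding genes, the mitochondrial counts were higher in the tumors. The satellite-like models were not left out of these nuclear counts, and they differed between tumors 1–6 and the other libraries as given above. Their part in this ratio was not tested. The log2 ratio was −7.02 ± 3.31 (SD, n = 3) in the controls and −0.30 ± 2.50 (SD, n = 9) in the tumors, a difference of 6.72 (exact permutation test, adjusted p = 0.0182). Tumors 7–9 lay at −4.66 to −2.61 and control 1 at −3.23, and 8 of 9 tumors were above all controls. Without control 2 or without control 3 the adjusted p was 0.0606.

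**Figure D1:**
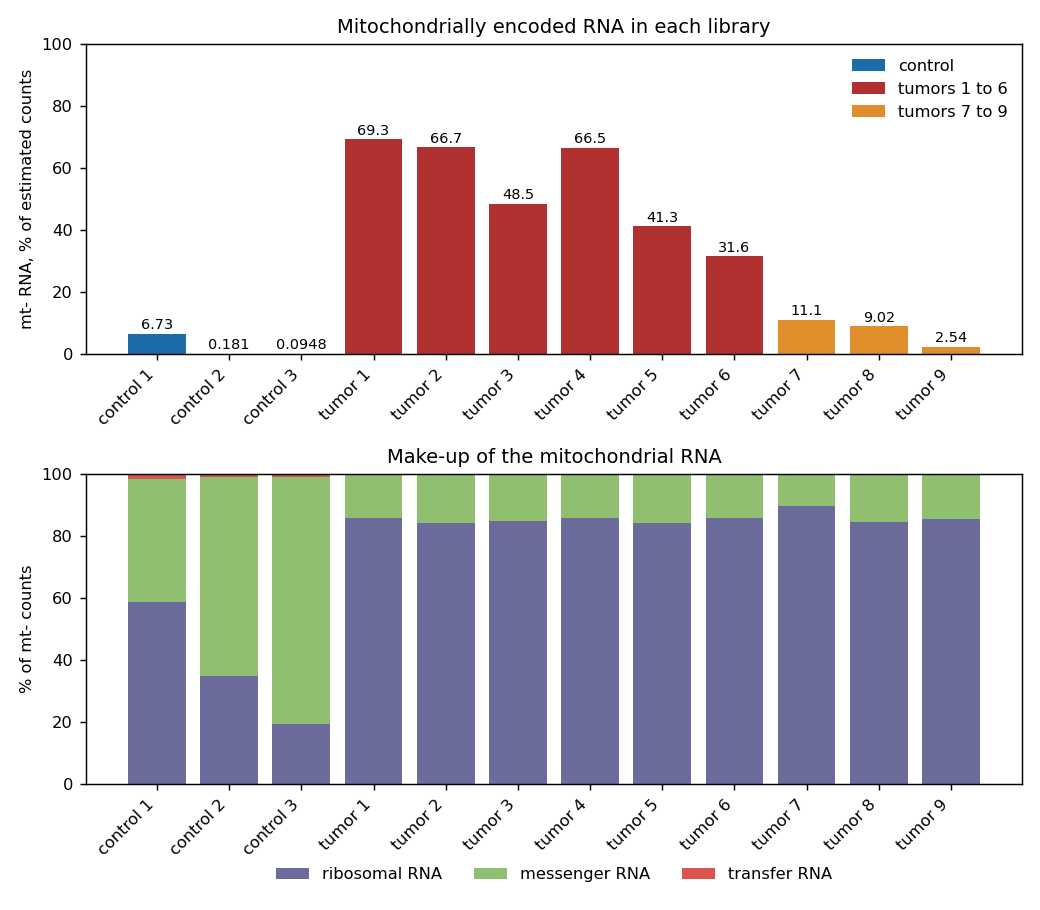
Upper bars give the mitochondrially encoded RNA of each library as a percentage of its estimated counts; lower bars split it into ribosomal, messenger and transfer RNA, as percentages of all mt- counts. The upper share varied from 2.54% to 69.3% over the tumors, while their rRNA share stayed between 84.3% and 89.6%.

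The make-up of the mitochondrial RNA separated the groups completely. The rRNAs were 58.7%, 35.0% and 19.4% of the mt- counts in controls 1 to 3. In the tumors they were 84.3% to 89.6%, with a median of 85.5%. The 9 tumors lay above all controls and differed less among themselves (85.6% ± 1.62, SD, n = 9) than the controls did (37.7% ± 19.8, SD, n = 3). The difference of 47.9 points had the smallest p that 220 splits allow (p = 0.00455, adjusted p = 0.0114, exact permutation test). The mRNAs took the complement, 39.7%, 64.1% and 79.7% in the controls against 10.4% to 15.7% in the tumors, with a median of 14.4% (difference −46.8 points, adjusted p = 0.0114, exact permutation test). Counted per mt-mRNA count, there were 1.48, 0.547 and 0.244 rRNA counts in controls 1 to 3 and 5.36 to 8.64 in the tumors. Tumors 7–9, with 84.6% to 89.6% rRNA, did not overlap the controls either, although 3 libraries against 3 cannot give a p below 0.1.

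The rRNAs also changed in proportion to each other. mt-Rnr1 encodes the 12S rRNA of the small mitochondrial ribosomal subunit and mt-Rnr2 the 16S rRNA of the large one. mt-Rnr2 made up 79.9%, 88.9% and 87.8% of the rRNA counts in controls 1 to 3, and 48.8% to 66.1% in the tumors, with a median of 53.6%. All 9 tumors were below all controls (85.5% ± 4.92, SD, n = 3, against 56.4% ± 6.54, SD, n = 9; difference −29.1 points, adjusted p = 0.0114, exact permutation test). Tumors 7–9 were at 48.8% to 65.1%. Per length, in TPM, mt-Rnr1 stood at 0.453, 0.224 and 0.251 times mt-Rnr2 in the controls and at 0.925 to 1.87 times in the tumors (0.959 to 1.87 in tumors 7–9).

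mt-Rnr1 was above all controls in all tumors on 4 scales: per library count, per mt- count, per mt-mRNA count and per mt-tRNA count. It took 0.794%, 0.00702% and 0.00225% of the library counts in controls 1 to 3 and 0.809% to 28.5% in the tumors, with a median of 12.9%. Tumors 7–9 were at 0.809% to 3.91%, and the lowest, tumor 9, was just above control 1. No other member had all tumors above all controls on this scale, which 0.079% of the 40521 genes tested did. None of the 37 had all tumors below all controls, where 21.8% of all genes lay. mt-Rnr2 took 3.15%, 0.0564% and 0.0162% of the library in the controls and 1.37% to 31.8% in the tumors (1.37% to 6.46% in tumors 7–9), and here the groups overlapped. Per mt-mRNA count and per mt-tRNA count, mt-Rnr2 was above all controls in all tumors too (backgrounds 0.0247% and 0.0666% of genes). Per mt- count, mt-Rnr1 was again the only member above all controls in all tumors (background 0.00494% of genes), and 33 of the 37 were below all controls in all tumors (background 1.7%). The shares on this scale sum to a fixed whole, so a larger rRNA share lowers the others. Apart from mt-Rnr1, the members not below were mt-Rnr2, mt-Co2 and mt-Tv.

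**Figure D2:**
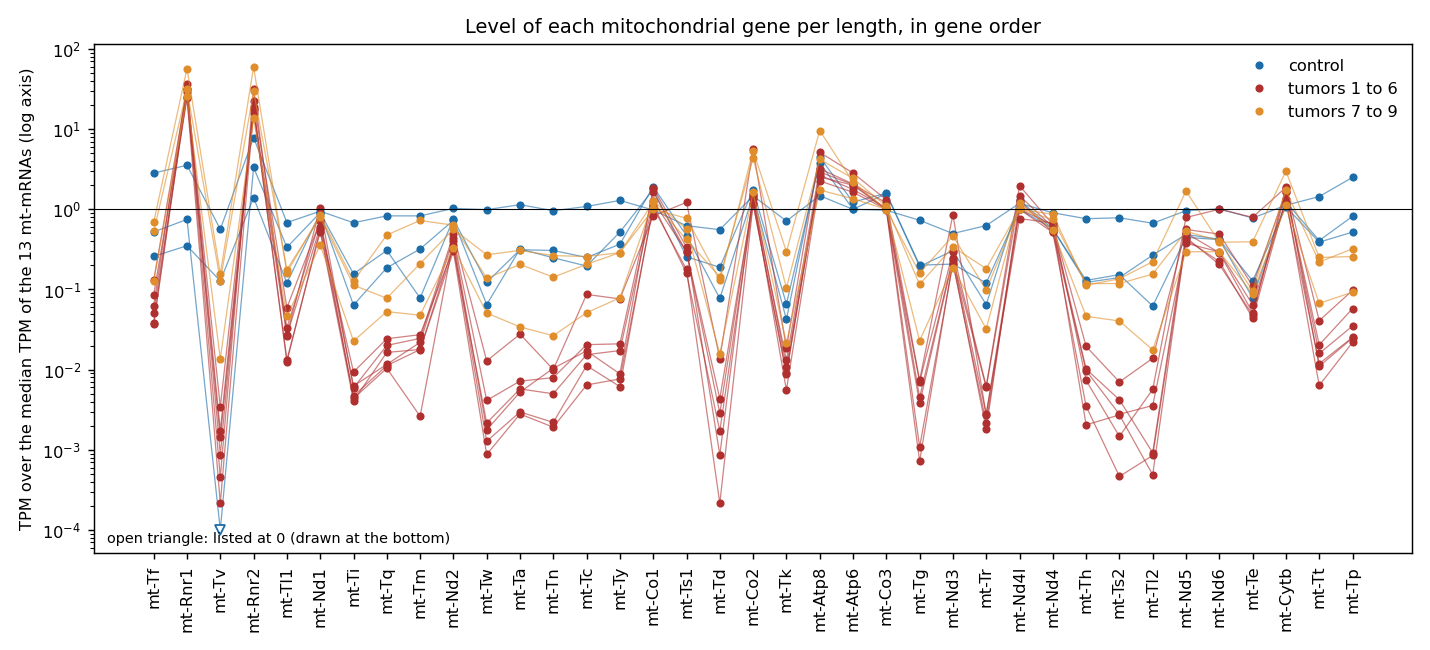
Level per length of each of the 37 members, in gene order along the genome, as TPM over the median TPM of the 13 mRNAs in the same library (log axis; a point is 1 library). In the tumors the points of mt-Rnr1 stand at 24.6 to 56.9 times the median mRNA, and mt-Tv between the rRNAs is at 0.157 times or less; controls 2 and 3 are also that low at mt-Tv, with 0 and 0.128.

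Relative to the mRNAs, the level of the rRNAs per length was modest in the controls. mt-Rnr1 lay at 3.54, 0.747 and 0.351 times the median mRNA TPM in controls 1 to 3 and at 24.6 to 56.9 times in the tumors (25.8 to 56.9 in tumors 7–9). mt-Rnr2 lay at 7.83, 3.33 and 1.40 times in the controls and at 13.7 to 59.3 times in the tumors, both ends of which were among tumors 7–9. In controls 2 and 3 the small-subunit rRNA was thus below the typical mRNA.

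The tRNAs were the smallest class in every library. Their summed counts were 13663, 138 and 71 in controls 1 to 3 and 281 to 5581 in the tumors. This was 1.69%, 0.874% and 0.920% of the mt- counts in the controls, with 95% Wilson intervals of 1.66% to 1.72%, 0.740% to 1.03% and 0.730% to 1.16%. In the tumors it was 0.00891% to 0.0951%, with a median of 0.0169%, and tumors 7–9 were the highest of them at 0.0530% to 0.0951%. All 9 tumors were below all controls (1.16% ± 0.458, SD, n = 3, against 0.0345% ± 0.0290, SD, n = 9; difference −1.13 points, adjusted p = 0.0114, exact permutation test). The order held with the mRNAs as the reference, with 4.26, 1.36 and 1.16 tRNA counts per 100 mt-mRNA counts in the controls, 0.0628 to 0.248 in tumors 1–6 and 0.365 to 0.659 in tumors 7–9. Per length, the median tRNA stood at 0.781, 0.226 and 0.188 times the median mRNA in the controls, 0.00522 to 0.0193 times in tumors 1–6 and 0.0462 to 0.206 times in tumors 7–9, so that tumors 7–9 overlapped the controls on this scale. The tRNA genes are 59 to 75 bases long, shorter than the fragments, which averaged 147 to 185 bases by the effective length of mt-Nd5, and their effective lengths in the files were 8.36 to 25.6 bases. Their TPM values are therefore less certain than those of longer genes. A tRNA count here is a read that fitted the tRNA model, and whether it came from a free tRNA or a longer precursor was not tested.

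mt-Tv, between the rRNAs, had 357 counts in control 1, none in control 2, 2 in control 3 and 1 to 26 in the tumors, with a median of 6. In control 2 a count of 0 among 15794 mt- counts allows a share of up to 0.0190%. In tumor 4 mt-Rnr1 had 6526900 counts next to 1 count of mt-Tv, and in control 1 it had 95477 next to 357. The genes adjoin without a gap, as shown above. Over the tumors there were 11751 to 6526900 mt-Rnr1 counts for each mt-Tv count, against 267 in control 1 and 91.5 in control 3, where the 2 counts give little precision.

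Among the tRNAs themselves, mt-Ts1 took 2.89%, 8.70% and 5.63% of the tRNA counts in controls 1 to 3. It took 41.6% to 48.5% in tumors 1–6 and 12.7%, 36.6% and 9.25% in tumors 7–9. All 9 tumors were above all controls, as for 0.0666% of all genes counted per mt-tRNA count, and mt-Ts1 was the only tRNA of which this held. Its counts were 12 in control 2, 4 in control 3 and 26 in tumor 9, so the order of tumor 9 and control 2 has little precision. mt-Te took 3.61%, 1.45% and 2.82% in the controls, 7.31% to 31.3% in tumors 1–6 and 6.45%, 5.69% and 2.14% in tumors 7–9, where the groups overlapped. Together the pair made 49.0% to 79.4% of the tRNA counts in tumors 1–6, 11.4% to 42.3% in tumors 7–9 and 6.50% to 10.1% in the controls. It was singled out after its values were seen. The glycine, threonine and proline tRNAs (mt-Tg, mt-Tt and mt-Tp) lay below all controls in all tumors on the same scale (background 0.0444%). Each had only 3 to 20 counts in controls 2 and 3. mt-Tp, the last gene on the map, was 11.1%, 14.5% and 11.3% of the tRNA counts in the controls and 3.80% to 7.35% in the tumors. In the controls no tRNA exceeded 14.5%. Both mt-Ts1 and mt-Te lie on the strand opposite to a long precursor that carries mt-Co1 and mt-Cytb. Whether counting used strand is not given in the sources used here, so reads of the 2 strands cannot be told apart.

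**Figure D3:**
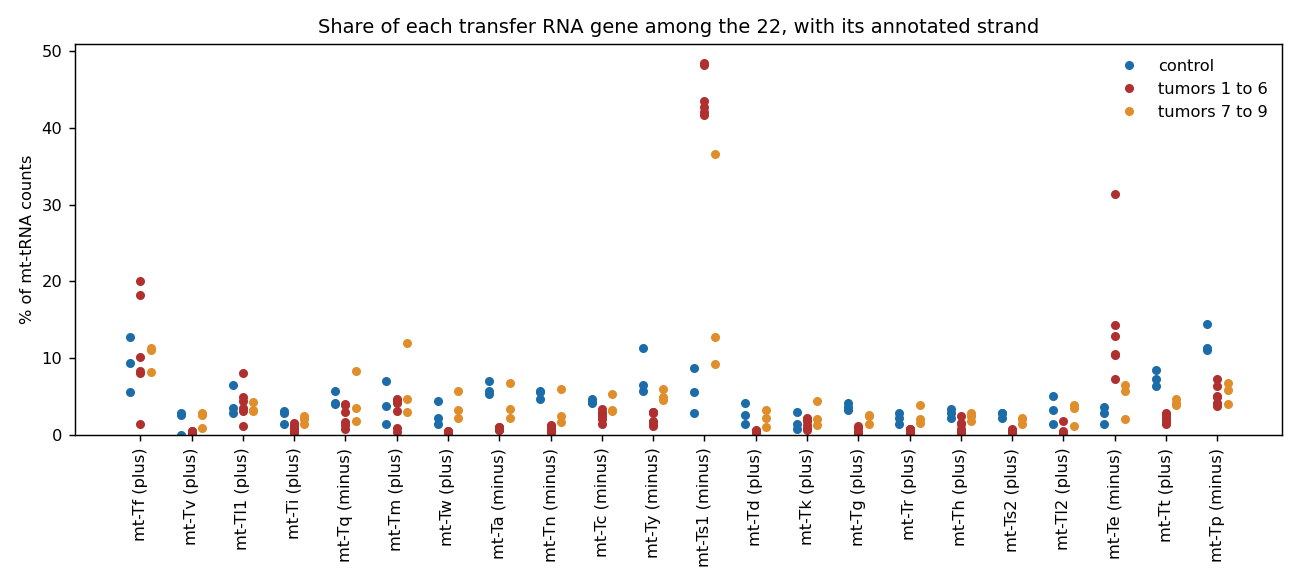
Share of each of the 22 tRNA genes among the tRNA counts of a library, in percent, with the strand of the gene in the axis label; a point is 1 library. mt-Ts1 stands at 41.6% to 48.5% in tumors 1–6, while the control points of all tRNAs stay at or below 14.5%.

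Among the mRNAs, shares were taken of the summed counts of the 13. Complex I is the NADH dehydrogenase, and 7 of its subunits are encoded here. mt-Nd1 was 7.98%, 7.39% and 7.66% in controls 1 to 3 and 3.98% to 6.63% in the tumors (3.98% to 5.63% in tumors 7–9). mt-Nd2 was 9.54%, 6.78% and 6.84% in the controls and 3.41% to 4.41% in the tumors (3.70% to 4.41% in tumors 7–9). Both were below all controls in all tumors, and the background for this was 0.23% of all genes counted per mt-mRNA count. These genes are the first mRNAs behind the rRNAs on the map and have no near-identical nuclear copy. The 7 subunits together took 52.8%, 32.9% and 34.0% in the controls and 28.6% to 36.5% in the tumors, both ends of which were among tumors 7–9 (39.9% ± 11.2, SD, n = 3, against 31.1% ± 2.29, SD, n = 9). This difference of −8.78 points had an adjusted p of 0.0511 in the exact permutation test, with 8 of 9 tumors below all controls, and without control 1 it was −2.35 points. It passed with the nuclear copies described below added (adjusted p = 0.0325), without tumors 7–9 (adjusted p = 0.0170) and without tumor 7 (adjusted p = 0.0121, exact permutation tests).

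mt-Nd6 is the single mRNA of the minus strand, and since strand use is not stated its counts may hold reads of the plus strand. It took 3.80%, 1.52% and 1.58% of the mRNA counts in controls 1 to 3 and 0.829% to 2.81% in the tumors, where the highest was tumor 5. The means were 2.30% ± 1.30 (SD, n = 3) and 1.40% ± 0.600 (SD, n = 9), with 7 of 9 tumors below all controls. The difference of −0.90 points did not pass (adjusted p = 0.0808, exact permutation test), and it was −0.15 points without control 1. It passed without tumor 5 (−1.08 points, adjusted p = 0.0346, exact permutation test). mt-Nd5, its plus-strand neighbour, took 17.0%, 8.31% and 7.99% in the controls and 6.79% to 18.8% in the tumors. The groups of mt-Nd5 overlapped, with control 1 and tumor 7 both high.

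mt-Cytb, the only complex III subunit encoded here, was 11.7%, 12.4% and 11.3% of the mRNA counts in controls 1 to 3 and 14.7% to 21.4% in the tumors (15.1% to 19.6% in tumors 7–9), all 9 above all controls. mt-Atp6 of complex V, the ATP synthase, was 5.48%, 6.48% and 5.52% in the controls and 7.59% to 12.2% in the tumors (7.59% to 11.3% in tumors 7–9), also without overlap. The background for such genes was 0.0247% per mt-mRNA count. Once the counts of its nuclear copy were added, mt-Atp6 was 5.40%, 9.03% and 9.62% in the controls and 6.27% to 11.6% in the tumors, and tumor 7 then lay within the controls. mt-Atp8 shares the start of mt-Atp6, and the 43 shared bases are given with the mt-Atp6 start codon in capitals, because reads from them fit both genes.
mt-Atp8 and mt-Atp6, shared bases, chrM:7927-7969, plus strand: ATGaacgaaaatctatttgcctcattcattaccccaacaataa
mt-Atp8 had the highest TPM of the 13 mRNAs in 10 of the 12 libraries, and mt-Co2 had it in tumors 5 and 9. With the nuclear copies added, mt-Co2 had it in all 9 tumors and mt-Atp8 in the 3 controls. The copy Gm10925 has words of both mt-Atp6 and mt-Atp8 and was added to mt-Atp6 only. As multiples of the median mRNA, mt-Co2 and mt-Atp8 were then close in tumor 8 (1.747 and 1.736) and in control 1 (1.451 and 1.460).

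Complex IV is cytochrome c oxidase. Its subunits mt-Co1, mt-Co2 and mt-Co3 together took 28.9% to 46.4% of the mRNA counts in the controls and 32.1% to 44.6% in the tumors, both ends of which were among tumors 7–9 (40.1% ± 9.78, SD, n = 3, against 38.5% ± 3.78, SD, n = 9; adjusted p = 0.659, exact permutation test). The direction of this difference turned when nuclear copies were added, from −1.62 to 4.19 points. mt-Co2 was 8.09%, 7.90% and 9.67% in the controls. In the tumors it was 23.2% in tumor 5, 20.4% in tumor 9, 18.8% in tumor 7, 11.8% in tumor 8 and 7.10% to 9.43% in the others.

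The tables divide the reads of some members between them and nuclear copies. Transcripts of 12 nuclear genes shared at least 100 of their 31-base words with a member, and 7 of them, all on chromosome 1 of mm10 between 24611535 and 24616197 on the minus strand, shared over 95%. The copy of mt-Co2, Gm28661, shared all 651 of its words. kallisto gave it 0%, 27.1% and 9.33% of the summed counts of the pair in controls 1 to 3. It received 56.4% to 69.1% in tumors 1 to 4 and 6, 46.5% in tumor 7 and 4.63% to 7.31% in tumors 5, 8 and 9. With the copies added, mt-Co2 was 7.98%, 9.81% and 9.74% of the mRNA counts in the controls and 12.4% to 29.0% in the tumors, and all 9 tumors lay above all controls. Tumors 1–6 then spanned 17.7% to 23.1%, where the values without copies had spanned 7.10% to 23.2%.

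mt-Nd3 showed the opposite division. Its copy Gm28438 took 54.1%, 74.3% and 67.1% of the pair in the controls, 0.664% to 2.27% in tumors 1–6 and 13.4% to 28.8% in tumors 7–9. Alone, mt-Nd3 was 0.992%, 0.388% and 0.600% of the mRNA counts in the controls and 0.474% to 1.25% in the tumors, with overlap. With the copy added it was 2.13%, 1.37% and 1.66% in the controls and 0.401% to 1.22% in the tumors, with no overlap. Gm10222, whose words all lie in mt-Nd4l, was at 0 in every library. The nuclear copies together equalled 1.44% to 11.3% of the mt-mRNA counts in the controls and 2.23% to 21.04% in the tumors. For the 8 mRNAs with a near-identical copy, single values therefore depend on a division of reads that the files do not resolve. mt-Nd1, mt-Nd2, mt-Nd5, mt-Nd6 and mt-Cytb have no near-identical copy, though less similar nuclear genes share words with mt-Nd2 and mt-Nd5.

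**Figure D4:**
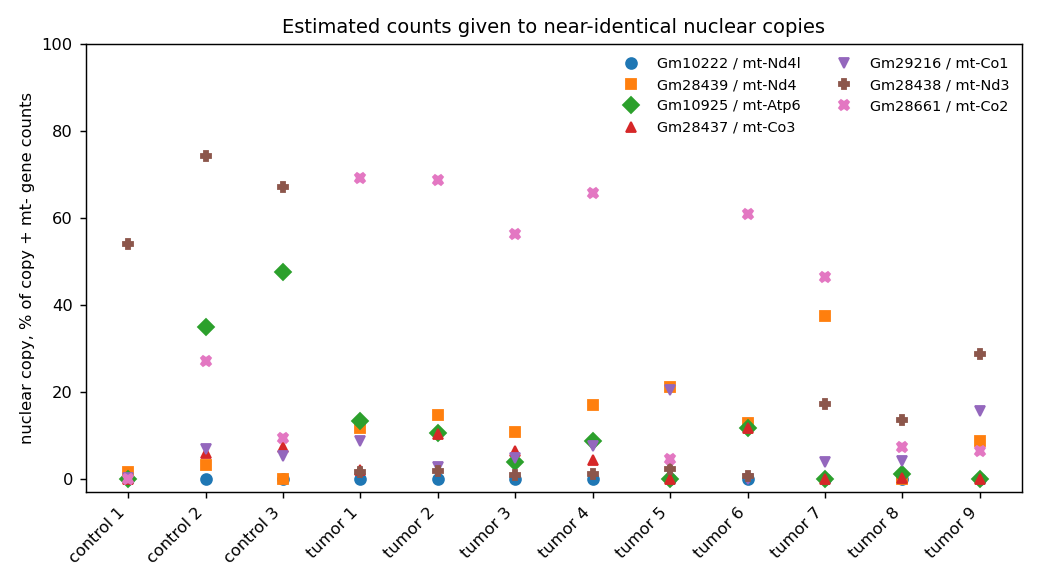
Estimated counts given to each of 7 near-identical nuclear copies, as a percentage of the counts of the copy and its mitochondrial gene together, by library (a point is 1 copy in 1 library). Gm28661 takes 46.5% or more of the mt-Co2 pair in 6 tumors and 27.1% or less in the other libraries, and Gm28438 takes 54.1% or more of the mt-Nd3 pair in the 3 controls and 28.8% or less in the tumors.

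Over the 5 mRNAs without a near-identical copy, the highest level per length was 1.19 times the lowest in control 1. The ratio was 2.91 and 2.56 in controls 2 and 3 and 3.78 to 9.09 in the tumors. Control 1, the control with the most mitochondrial RNA, thus had nearly even levels over these genes. Its tRNAs were also the closest to the mRNAs in level of any library, at 0.781 times.

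The mitochondrial mRNAs were then set against the nuclear-encoded partners of the same complexes. The summed counts of the 13 mRNAs were 44.9, 1.38 and 1.06 times those of 74 nuclear genes of the respiratory chain in controls 1 to 3 and 7.04 to 166 times in the tumors. On the log2 scale the ratio was 2.01 ± 3.02 (SD, n = 3) in the controls and 5.52 ± 1.47 (SD, n = 9) in the tumors. The difference of 3.51 passed the threshold (adjusted p = 0.0379, exact permutation test), but only 5 of 9 tumors were above all controls. It was lost without control 2, without control 3 or without any one of tumors 1 to 4 (adjusted p of 0.0505 to 0.101). Tumors 7–9 had log2 ratios of 2.82 to 5.63, with control 1 at 5.49 among them.

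By complex, the median TPM of the mitochondrially encoded subunits was compared with the median of the nuclear-encoded ones. For complex I the ratio was 406, 6.85 and 5.63 in controls 1 to 3 and 33.4 to 859 in the tumors (33.4 to 275 in tumors 7–9). For complex III, with mt-Cytb as its mitochondrial subunit, it was 423, 14.4 and 9.94 in the controls and 97.5 to 1993 in the tumors (97.5 to 1175 in tumors 7–9). For complex IV it was 208, 11.6 and 11.2 in the controls and 61.5 to 721 in the tumors (63.5 to 337 in tumors 7–9). For complex V it was 364, 18.8 and 14.6 in the controls and 140 to 1943 in the tumors (140 to 1292 in tumors 7–9). In each complex every tumor was above controls 2 and 3, and control 1 lay among the tumors.

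**Figure D5:**
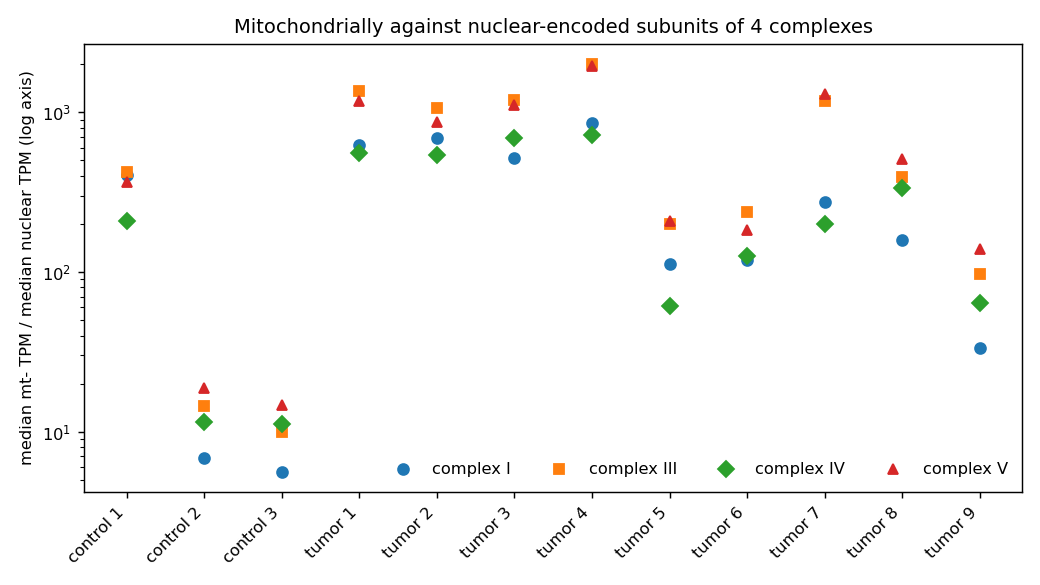
Median TPM of the mitochondrially encoded subunits over the median TPM of the nuclear-encoded subunits, by library, for complexes I, III, IV and V (log axis). In all 4 complexes controls 2 and 3 are lowest, at 5.63 to 18.8, and control 1 lies within the range of the tumors.

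The nuclear genes themselves were compared across the whole table with edgeR, a count model. Of 35 complex I, 4 complex II, 9 complex III, 11 complex IV and 15 complex V genes, none passed an adjusted p of 0.05 in either direction. The backgrounds were 0% of 40521 genes higher and 0.00494% lower. At an unadjusted p under 0.05 stood 28, 4, 8, 11 and 12 of them, against 18% of all genes. Their median log2 fold changes of tumors over controls were 2.27, 2.79, 3.78, 3.70 and 2.76, where the median of all genes was −0.45. These sizes rest on the TMM factors given above. As a share of library counts, these genes together took 0.0594% to 0.0842% in the controls. They took 0.0572% to 0.306% in tumors 1–6 and 0.0232% to 0.0521% in tumors 7–9. On that scale tumors 1–6 overlapped the controls and tumors 7–9 lay below them. The 2 most abundant genes of each list showed where the counts lay. Atp5a1, the alpha subunit of the ATP synthase, was at 4.90 to 8.97 CPM in the controls, 197 to 438 in tumors 1–6 and 3.25 to 15.5 in tumors 7–9. Its beta subunit gene Atp5b was at 8.17 to 15.9, 175 to 331 and 6.96 to 11.9 CPM. Cox6c of complex IV was at 3.76 to 7.15, 61.3 to 333 and 3.98 to 6.58 CPM, and Cox4i1 at 4.28 to 5.52, 38.6 to 99.8 and 4.05 to 4.96 CPM. Sdha, the flavoprotein of complex II, was at 3.41 to 5.56, 56.0 to 102 and 3.21 to 4.44 CPM. For Cox6c, Cox4i1 and Sdha, tumors 1–6 were all above the controls in TMM-scaled CPM and tumors 7–9 overlapped them. In the same order of groups, Uqcrc2 of complex III was at 2.12 to 4.58, 51.4 to 116 and 1.44 to 3.17 CPM. Ndufs1 of complex I was at 13.1 to 15.2, 44.9 to 96.3 and 13.4 to 15.9 CPM. The second most abundant genes of complexes I, II and III, Ndufab1, Sdhb and Uqcrh, had log2 fold changes of 0.58, 2.68 and 4.11.

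Nuclear genes that make and process mitochondrial RNA gave no calls either. None of 18 genes of mitochondrial transcription and DNA maintenance passed in either direction (10 at an unadjusted p under 0.05), nor did any of 24 genes of RNA processing, stability and decay (14) or of 8 regulators of mitochondrial biogenesis (6). Their median log2 fold changes were 1.37, 1.60 and 2.26. Mterf3, a mitochondrial transcription termination factor family member, was at 70.9 to 75.9 CPM in the controls, 52.4 to 96.6 in tumors 1–6 and 53.5 to 70.9 in tumors 7–9. Polg, the catalytic subunit of the mitochondrial DNA polymerase, was at 6.70 to 8.37, 28.2 to 92.0 and 6.63 to 11.2 CPM. Lrpprc, which stabilises mitochondrial mRNAs, was at 10.5 to 11.9, 43.4 to 116 and 10.3 to 14.3 CPM. Pnpt1, the polynucleotide phosphorylase of mitochondrial RNA decay, was at 2.91 to 5.72, 69.1 to 193 and 2.84 to 8.19 CPM. Nrf1, a transcription factor of nuclear genes for mitochondria, was at 7.19 to 8.44, 37.6 to 133 and 9.44 to 13.1 CPM, and Yy1 was at 4.07 to 5.76, 65.0 to 108 and 4.05 to 6.55 CPM. In these TMM-scaled CPM, the separation was therefore between tumors 1–6 and the rest for Polg, Lrpprc, Pnpt1, Nrf1 and Yy1, and absent for Mterf3. Per library count it did not hold for Polg, Lrpprc and Nrf1, where tumor 1 was below all controls. For Pnpt1 and Yy1 this was not tested. In TMM-scaled CPM, Nrf1 in tumors 7–9 was also above the controls, but per library count tumor 7 was not.

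In that same edgeR comparison 0 of the 37 members passed in either direction, with backgrounds of 0% higher and 0.00494% lower. 15 members and 18% of all genes had an unadjusted p under 0.05. The log2 fold changes were positive for both rRNAs, all 13 mRNAs, mt-Ts1 and mt-Te, and negative for the other 20 tRNAs. mt-Rnr1 had the largest, 8.42 (SE 6.90, edgeR adjusted p = 0.605), followed by mt-Rnr2 at 6.67. The mRNAs ran from 3.61 for mt-Nd6 to 6.28 for mt-Atp6. mt-Ts1 was at 3.75 and mt-Tv at −2.87. Under library totals in place of TMM factors, 16 members were positive and again none passed. mt-Rnr1 was then at 5.79, mt-Rnr2 at 4.07, mt-Nd6 at 1.14, mt-Ts1 at 1.35 and mt-Tv at −4.58. With control 1 left out, the median log2 fold change of the members moved from −0.15 to 5.36 and all 37 were positive, yet still none passed. Without tumors 7–9, 13 members were called higher and 2 lower of 34 tested, where 19.6% and 20.3% of all genes were called. For tumors 7–9 alone against the controls, 0 of 32 were called, with 2 at an unadjusted p under 0.05 by edgeR (backgrounds 0.0247% in each direction and 9.04%). DESeq2 called 16 members and 9.97% of all genes higher. limma on log2(TPM + 1) called 6 members and 0.176% of all genes higher. With libraries 1 to 3 of both groups paired by number, edgeR called 21 of 30 members higher (background 22.5%).

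With each library scaled by its summed mt-mRNA counts, 0 of the 37 were called in either direction by edgeR (backgrounds 0.00494% higher and 49.7% lower). 1 member had an unadjusted p under 0.05 there, against 77.6% of all genes. Without tumors 7–9, 2 members were called higher and 17 lower (backgrounds 0.083% and 99.1%). With all mt- counts as the scale, 20 were called lower (background 99.3%), and with the pairing by number 4 (background 84.7%). Without tumor 9, 15 of 36 members tested were called lower, where 38263 of all 38848 genes were.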

How the data were processed

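Polyadenylated RNA from 3 control and 9 tumor thymus libraries was sequenced in read pairs, 75 bases from each end, per the labels' protocols. For 128622 transcripts per library the authors deposited estimated counts and TPM, both from kallisto, per the file headers. FastQC, kallisto and the build mm10 are named, without versions, in the submitters' processing notes. The transcript release and the use of strand were not stated in the sources used here. Coordinates and sequences came from GENCODE M21 (GRCm38), with which all 37 members matched by transcript identifier and length.

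Estimated counts and TPM were summed per gene, and counts were rounded for the count models. 10 shares or ratios were compared by two-sided exact permutation tests over the 220 splits into 9 and 3 libraries (SciPy 1.17.1), adjusted together by Benjamini-Hochberg. All genes were fitted with edgeR 4.0.16 (quasi-likelihood, TMM factors, filterByExpr, 40521 genes), and again with the summed mt-mRNA count as library size; DESeq2 1.42.0 and limma 3.58.1 were alternatives. Scripts were tested on simulated data. CPM values are TMM-scaled. A gene's nuclear copies were found by shared 31-base words. Intervals (95%, Wilson) and limits for a count of 0 (3 counts) cover counting error only, since reads are not independent molecules. That limit was 8.63e-06% to 3.69e-05% of a library, so depth limited mainly the tRNAs of controls 2 and 3.

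Alternatives were other scalings, filters and tests, TPM in place of counts, left-out libraries, tumors 7 to 9 left out or alone, and a replicate block. Adding the near-identical copies to their genes was chosen after seeing the data. The members and gene lists were chosen with earlier results of these data known. All members could be named, and of each nuclear list the 2 genes with the highest mean CPM, since none passed.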

Additional observations from a re-analysis of the deposited data

Results flagged for a closer look

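In 22 values screened over the 9 tumors, 6 had a highest or lowest library whose gap to the next was above Dixon's critical value as a part of the range of the tumors; chance alone flags about 1 in 20. The values share libraries and reads, and their causes were not tested. In tumor 7 the rRNA share of the mt- counts was 89.6%, where the next tumor had 85.8%, and its mRNA share was 10.4%, where the next had 14.2%. In tumor 7, mt-Nd5 took 18.8% of the mRNA counts, where the next tumor had 10.5%, and the complex I genes, of which mt-Nd5 is one, took 36.5%, where the next had 32.0%. In tumor 5, mt-Nd6 took 2.81% of the mRNA counts, where the next tumor had 1.73%, and mt-Nd3 took 1.25%, where the next had 0.613%.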

How the results depend on the processing

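The rRNA, mRNA, tRNA and mt-Rnr2 shares kept their direction under all alternatives run and kept their call when any one library was left out or TPM sums replaced counts. With TPM sums the differences were 59.4, −32.0, −27.5 and −34.7 percentage points. With tumors 7 to 9 alone against the controls, where 3 libraries against 3 cannot give a p below 0.1, the differences were 48.9, −47.8, −1.09 and −26.6 percentage points. In the same setting the log2 difference of mt-mRNA over nuclear respiratory chain counts was 2.41 and that of mt- over nuclear protein-coding counts was 3.69. As a replicate block (libraries 1 to 3 of each group, smallest exact permutation p 0.25), these 6 values were 47.2, −46.1, −1.15, −33.3, 4.66 and 8.75. Same-numbered libraries deviated together with correlations of 0.106, 0.0840 and −0.149, so the numbers were not taken as pairs.

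The difference in mitochondrial share of the library was 15.9 points with TPM sums, 5.21 for tumors 7 to 9 alone, 59.2 with the replicate block, 51.6 without tumors 7 to 9, 37.9 without the satellite-like models, and 32.3 to 40.7 with 1 library left out. It was called without tumors 7 to 9, without the satellite-like models, without tumor 7 and without tumor 9. The complex I difference, not called otherwise, was called at −8.94 without tumors 7 to 9, at −10.2 with near-identical copies added and at −9.45 without tumor 7, and it was −12.3 to −2.35 with 1 library left out. For mt-Nd6 the range over left-out libraries was −1.29 to −0.152. The complex IV difference turned to 4.19 with the copies added, and was −7.26 to 1.498 over left-out libraries, turning to 0.901 without control 2 and to 1.498 without control 3. With 1 library left out the log2 difference was 2.54 to 5.25 for mt-mRNA over respiratory chain counts and 5.53 to 8.61 for mt- over protein-coding counts. The cause of these shifts was not tested.

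Members called higher numbered 16 with DESeq2, 6 with limma on TPM, 13 without tumors 7 to 9 (2 lower) and 21 with the replicate block, against 0 otherwise. Scaled by mt-mRNA, 2 were higher and 17 lower without tumors 7 to 9, 20 lower with all mt- counts as the scale, 4 lower with the replicate block and 0 to 15 lower over left-out libraries (15 without tumor 9). The backgrounds over all genes for the settings with calls are given above. The log2 fold change of mt-Nd6 was −0.75 for tumors 7 to 9 alone. That of mt-Tv ran from −3.60 to 3.33 over left-out libraries, with 3.33 without control 1. The median log2 fold change over all genes was −0.45 with TMM factors, −0.72 with RLE factors and −1.82 with library totals, and the members' median was −0.15, −0.51 and −2.45. Depth limits mainly the tRNAs, with 138 and 71 counts in controls 2 and 3.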
